A study of Mus musculus with 12 samples.

Results

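The genes described here are 10 genes of vessel wall cells in the mouse embryonic heart, in 2 groups. The contractile group holds Acta2, Tagln, Myh11, Cnn1, Smtn and Mylk, which build and run the contractile apparatus of smooth muscle cells. The pericyte group holds Pdgfrb, Rgs5, Kcnj8 and Abcc9. Their members were all probes that the array annotation gives to these 10 symbols, which came to 26 of 45267 probes and to 10 of 19056 named genes. Of the 26 probes, 19 belong to contractile genes and 7 to pericyte genes.

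Hearts were dissected at E15.5, late in cardiac development, and RNA from each was read on 1 Illumina array. The mice carried a Lexicon gene trap in Ddc, the gene of dopa decarboxylase, on a mixed B6;129S5 background, and the heart transcript Ddc_exon1a is expressed from the allele of paternal origin. The 12 hearts were 1 KO (the trap from both parents, Ddc-/-), 4 PatKO (the trap from the father, labelled Ddc+/-), 4 MatKO (the trap from the mother, labelled Ddc-/+) and 3 WT. KO and PatKO hearts are therefore grouped as ablated for Ddc_exon1a, while MatKO and WT hearts keep an intact expressed allele and are the controls. Ablated does not mean absent in PatKO hearts, for which the paper reports diminished expression with a small maternal share. Embryos with the trap on both alleles are under-represented and die before birth, so the KO group is 1 heart that had reached this stage. The trap is in the germ line and so in all cell types of a mutant. The litter, sex and array slide of single hearts were not given, although Xist, a transcript of female cells described below, differed between hearts. P-values measure the spread between hearts. The labels were checked on Ddc itself, which read 9.12 in the KO heart, 10.22 to 10.44 in PatKO hearts, 13.42 to 13.99 in MatKO hearts and 13.66 to 14.12 in WT hearts on the log2 scale.

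Mural cells wrap the endothelial tube of blood vessels. Smooth muscle cells encircle arteries and contract when myosin light chain kinase phosphorylates myosin, while pericytes lie singly on capillaries and are recruited through platelet-derived growth factor. In the mouse heart they descend largely from the epicardium and the neural crest, and coronary arteries are still gaining their smooth muscle coat at this stage. Several of these genes are not private to vessels, since embryonic cardiomyocytes transcribe smooth muscle actin and adult cardiomyocytes use the Abcc9 product as a channel subunit. In RNA from whole hearts, fewer cells of a type and less RNA per cell cannot be told apart.

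All values below are log2 signals, in which a difference of 1 is a 2-fold change in signal. The lowest value on any array was 4.58 and the array medians were 5.61 to 5.62, so a probe with a mean under 7 over the 12 hearts is called dim here. By this measure 15 of the 26 probes were bright and 11 were dim. Acta2, Smtn, Mylk and all pericyte genes had a bright probe. Tagln, Myh11 and Cnn1, which are among the genes most restricted to smooth muscle, had dim probes only, so the array gave little signal for the defining contractile markers. For each gene the probe with the highest mean stands for the gene unless another is named.

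After adjustment over all probes, no member probe differed between genotypes in any comparison. The count was 0 of 26 by limma in each of the 5 comparisons made, beside 0.00663% of all probes for PatKO against MatKO, 0.00663% for PatKO against WT, 0.0% for MatKO against WT, 0.0729% for KO against WT and 0.00884% for ablated against control hearts. What follows therefore gives the values, their spread and the unadjusted test. The clearest pattern was between PatKO and MatKO hearts, in which 10 of 26 member probes had an unadjusted p under 0.05, beside 7.12% of all probes. Of these 8 were higher in PatKO, beside 3.3% of all probes, and 2 were lower, beside 3.82%. Among bright probes the count was 7 of 15, beside 11.0% of all bright probes. By gene, on the brightest probes, it was 5 of 6 contractile and 1 of 4 pericyte genes. Members were chosen with earlier results of these data known, and Mylk, Smtn and Abcc9 each gave more than 1 of the 10 probes. The shares beside these counts are therefore a description and not a test of the group. The smallest adjusted p of a member in this comparison was 0.492.

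Mylk encodes the myosin light chain kinase that switches contraction on. Its brightest probe read 10.86, 11.39, 11.21 and 11.19 in PatKO hearts, against 10.61, 10.60, 10.78 and 10.68 in MatKO hearts. Every PatKO heart lay above every MatKO heart, as was so for 2.15% of all probes. The difference was 0.49 ± 0.17 (SE, 95% interval 0.12 to 0.87), a 1.41-fold higher signal in PatKO, with an unadjusted p of 0.0138 and an adjusted p of 0.562 in limma. Both other bright Mylk probes gave near-equal differences, 0.53 (unadjusted p 0.00683) for ILMN_1219471 and 0.53 (unadjusted p 0.00693) for ILMN_2662602. The KO heart read 10.69 on the brightest probe, inside the MatKO range, and the WT hearts read 10.48, 10.72 and 11.31 and so spanned almost the whole range of the series.

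Smtn encodes smoothelin, an actin-binding protein of contractile smooth muscle. Its brightest probe read 11.69, 12.23, 11.97 and 11.84 in PatKO hearts, against 11.53, 11.52, 11.60 and 11.61 in MatKO hearts, with no overlap. The difference was 0.37 ± 0.15 (SE, unadjusted p 0.0364, adjusted p 0.661), and a further bright probe, ILMN_2955973, gave 0.29 ± 0.11 (unadjusted p 0.0202) with no overlap either. The KO heart read 11.77 and the WT hearts 11.75, 11.50 and 12.21. MatKO hearts were the tightest group for this gene, with an SD of 0.047 against 0.229 in PatKO hearts and 0.36 in WT hearts.

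Myh11 is the smooth muscle myosin heavy chain, the most specific marker of the lineage in the list. Its brighter probe was dim, at 5.47, 7.18, 6.78 and 6.48 in PatKO hearts, against 5.09, 5.19, 5.37 and 5.09 in MatKO hearts. All PatKO hearts were above all MatKO hearts, and the fitted difference was 1.29 ± 0.41 (SE, unadjusted p 0.00875, adjusted p 0.522). The MatKO readings and those of KO 1, PatKO 1 and WT 1 lay below the array medians, close to the lowest signals, so the size of this difference is not a measured fold and readings this low have no order. The KO heart read 5.24 and the WT hearts 4.96, 6.24 and 6.84. Over the 12 hearts the readings fell into 2 sets, with 5 hearts at 6.24 or more (PatKO 2, 3 and 4, WT 2 and 3) and 7 at 5.47 or less, and no MatKO heart was in the upper set. The second Myh11 probe stayed at 4.76 to 5.02 in all hearts, with a difference of 0.11.

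Tagln and Cnn1 ran the other way. Tagln (transgelin, an actin-binding protein and early smooth muscle marker) read 5.87, 5.79, 5.98 and 6.33 in PatKO hearts, against 7.28, 6.33, 6.55 and 6.94 in MatKO hearts. Every PatKO heart was below every MatKO heart, as was so for 2.59% of all probes, although PatKO 4 and MatKO 2 differed only in the third decimal. The difference was -0.78 ± 0.28 (SE, unadjusted p 0.0187, adjusted p 0.580). Cnn1 (calponin, which binds actin and restrains myosin) read 5.31, 5.04, 5.42 and 5.29 in PatKO hearts, against 5.24, 5.82, 6.09 and 5.73 in MatKO hearts. MatKO 1 lay inside the PatKO range, and the fitted difference was -0.45 ± 0.18 (SE, unadjusted p 0.0280, adjusted p 0.622), with all PatKO readings below the array medians, so its size is not a measured fold either. Both were read by dim probes, and the second Tagln probe, at 4.69 to 4.99 in all hearts, showed a difference of 0.05. In the KO heart Tagln read 6.96 and Cnn1 5.35. In WT hearts Tagln read 5.92, 7.20 and 6.08 and Cnn1 5.28, 5.78 and 5.30, and in both genes it was WT 2 that was high.

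Acta2, smooth muscle actin, was the brightest member. Its top probe read 15.33 in the KO heart, 15.25 to 15.39 in PatKO hearts, 15.29 to 15.38 in MatKO hearts and 15.35 to 15.39 in WT hearts. The highest value of any probe on these arrays was 15.59, so this probe sat close to the top of the scale and its narrow spread cannot be read as a stable level. The 3 further bright Acta2 probes ranged over 13.86 to 14.94 and differed between PatKO and MatKO by -0.10 to -0.07, with unadjusted p of 0.420 or more. One of them, ILMN_2923445, was higher in MatKO (14.45 to 14.65) than in WT hearts (14.14 to 14.49), by 0.25 with an unadjusted p of 0.0339 and an adjusted p of 0.999.

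**Figure D1:**
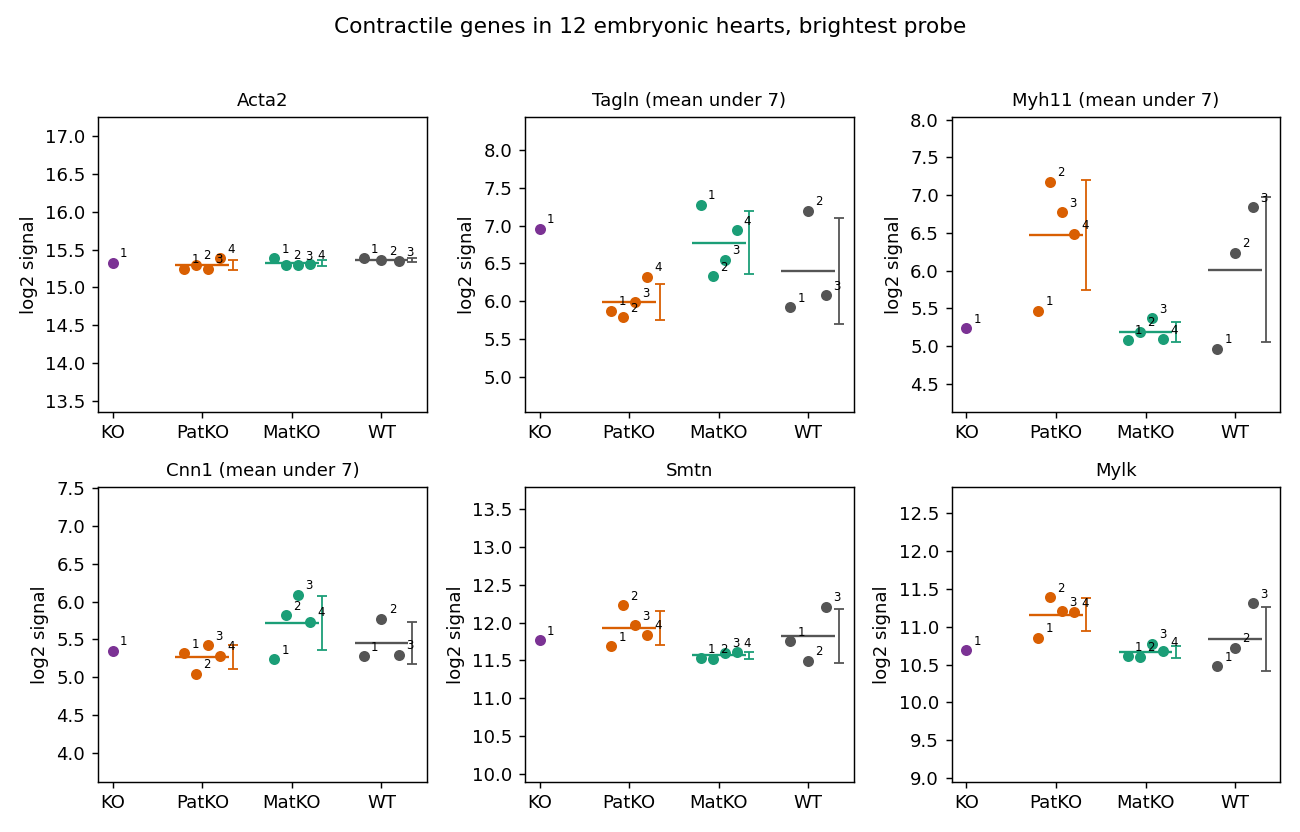
Log2 signal (vertical axes, each spanning the same number of log2 units) of the brightest probe of the 6 contractile genes in KO, PatKO, MatKO and WT hearts; points are hearts labelled by replicate, lines are means and bars are ± 1 SD. Mylk, Smtn and Myh11 lie higher in PatKO than in MatKO hearts, Tagln and Cnn1 lie lower, and Acta2 stays between 15.25 and 15.39.

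PatKO 2 was the highest PatKO heart for Mylk, Smtn, Myh11 and Abcc9 and the lowest for Tagln and Cnn1. Without it 6 of 26 probes kept an unadjusted p under 0.05, with differences of 0.42 for Mylk (p 0.0431), 1.06 for Myh11 (p 0.0293) and -0.71 for Tagln (p 0.0481), while Smtn at 0.27 (p 0.112), Cnn1 at -0.38 (p 0.0784) and the brightest Abcc9 probe at 0.27 (p 0.0605) did not. The share of all probes under that level was not counted in this fit, so its count of member probes has no background beside it. Leaving out other single hearts also took some differences past that level. Without MatKO 1 Tagln was at -0.61 (p 0.0602) and Abcc9 at 0.29 (p 0.0521), without MatKO 2, 3 or 4 Cnn1 was at -0.45 to -0.33 (p 0.0519 to 0.0880), and Smtn was at 0.35 to 0.38 (p 0.0534 to 0.0709) without any 1 of the 4 MatKO hearts or PatKO 3. The Mylk and Myh11 differences kept an unadjusted p under 0.05 whichever heart was left out.

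The plot of all 26 probes shows the split within the contractile group. Each bright Mylk and Smtn probe had a positive PatKO minus MatKO difference, whereas the 4 bright Acta2 probes lay near 0. The mean level of the 6 contractile genes, set to 0 over the 12 hearts, was 0.07 ± 0.19 in PatKO and -0.08 ± 0.06 in MatKO hearts (SD, n = 4 each). The difference of 0.15 was below the SD of 0.20 among hearts of a genotype. It depended on which genes were averaged, at 0.33 without Tagln, 0.27 without Cnn1 and -0.08 without Myh11, so the mean gives no single direction for the group.

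**Figure D2:**
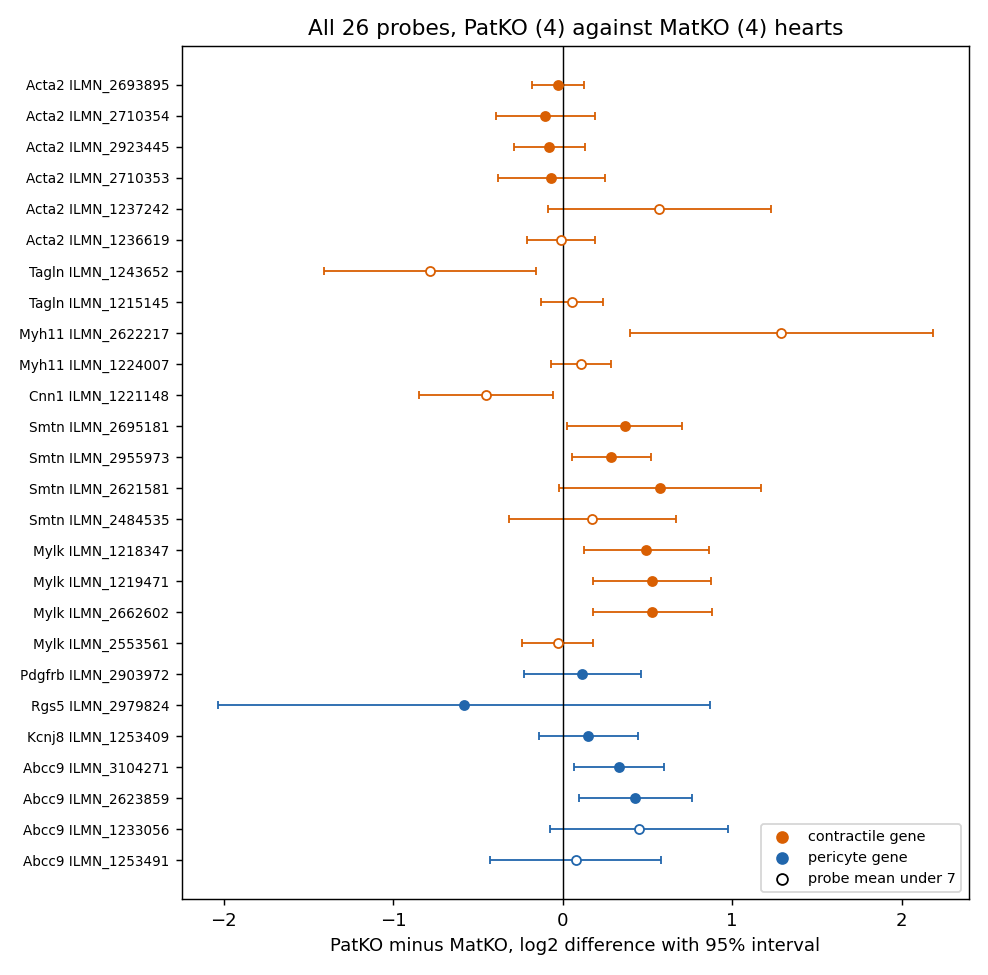
PatKO minus MatKO log2 difference (horizontal axis) with its 95% interval for each of the 26 probes, ordered by gene; open circles are dim probes. The intervals of 10 probes leave out 0, 8 above it and 2 below it, and none passed adjustment over all probes.

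Serum response factor and myocardin switch on many contractile genes through CArG boxes, a motif of CC, a core of A and T, and GG. The RefSeq promoter table (GRCm38.p6) holds 7 of the 10 genes, with Tagln, Myh11 and Pdgfrb not among them. The stretches of 4 genes are shown, each the 250 bases before the start that the table uses, because Acta2 is the classic target of this motif and Mylk, Smtn and Abcc9 are the genes with bright probes that were higher in PatKO than in MatKO hearts at an unadjusted p under 0.05. These starts are not all the outermost ones. The Smtn stretch lies just outside the annotated gene (ending at base 3539292), while the Mylk stretch lies well inside its gene (beginning at 34745199), the Abcc9 stretch inside its gene (ending at 142702766) and most of the Acta2 stretch inside its gene (ending at 34255585), so these 3 come before internal starts. Capitals mark a CArG box variant with 1 G or C among the 6 core bases. Acta2 is at chr19:34255374-34255623 on the minus strand, Smtn at chr11:3539293-3539542 on the minus strand, Mylk at chr16:34784700-34784949 on the plus strand and Abcc9 at chr6:142702275-142702524 on the minus strand.
Acta2: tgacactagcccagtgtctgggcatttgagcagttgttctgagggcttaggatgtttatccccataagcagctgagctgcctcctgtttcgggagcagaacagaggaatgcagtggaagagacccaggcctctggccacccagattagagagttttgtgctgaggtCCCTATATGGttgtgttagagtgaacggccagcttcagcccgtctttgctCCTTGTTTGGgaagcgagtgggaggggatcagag
Smtn: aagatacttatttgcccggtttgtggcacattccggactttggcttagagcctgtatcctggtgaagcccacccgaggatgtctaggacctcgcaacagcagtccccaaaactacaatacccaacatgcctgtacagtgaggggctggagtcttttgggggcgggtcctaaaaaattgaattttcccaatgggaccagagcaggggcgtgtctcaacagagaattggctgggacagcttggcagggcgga
Mylk: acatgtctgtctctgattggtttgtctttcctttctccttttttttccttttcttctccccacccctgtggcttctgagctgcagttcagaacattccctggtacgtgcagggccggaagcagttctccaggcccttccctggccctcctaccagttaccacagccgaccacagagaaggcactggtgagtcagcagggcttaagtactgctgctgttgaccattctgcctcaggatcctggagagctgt
Abcc9: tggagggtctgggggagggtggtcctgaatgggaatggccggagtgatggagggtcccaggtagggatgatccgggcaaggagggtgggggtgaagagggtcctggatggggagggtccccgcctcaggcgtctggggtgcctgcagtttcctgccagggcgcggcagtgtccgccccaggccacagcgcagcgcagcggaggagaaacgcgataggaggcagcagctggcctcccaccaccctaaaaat
Neither strand of any of the 7 promoters held an exact CArG box. The Acta2 stretch held 2 variants, CCCTATATGG beginning 84 bases before the start and CCTTGTTTGG beginning 34 bases before it, and the other 6 held none. Of 32851 promoters of the same length, 1.47% held an exact box and 7.24% the variant. The table gives 1 start for each of these genes, and which starts the hearts used was not measured.

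The pericyte genes did not all shift the same way between PatKO and MatKO hearts, with 3 of 4 higher in PatKO and Rgs5 lower. Abcc9, the SUR2 subunit that makes ATP-sensitive potassium channels respond to nucleotides, was the only one with an unadjusted p under 0.05. Its brightest probe read 11.00, 11.29, 11.15 and 10.93 in PatKO hearts, against 10.65, 10.69, 10.96 and 10.75 in MatKO hearts. PatKO 4 lay below MatKO 3 and all others were separate, with a difference of 0.33 ± 0.12 (SE, unadjusted p 0.0192, adjusted p 0.580). The next probe, ILMN_2623859, gave 0.43 ± 0.15 (unadjusted p 0.0159). WT hearts read 10.72, 10.99 and 11.16 on the brightest probe.

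Kcnj8 encodes Kir6.1, the pore that pairs with SUR2 in vessels, and lies next to Abcc9 on chromosome 6. It read 9.19, 9.43, 9.46 and 9.51 in PatKO hearts, against 9.31, 9.36, 9.00 and 9.32 in MatKO hearts, a difference of 0.15 ± 0.13 (SE, unadjusted p 0.280). Pdgfrb, the receptor by which mural cells follow platelet-derived growth factor, read 8.92, 9.09, 9.13 and 8.92 in PatKO hearts, against 8.90, 8.62, 9.08 and 8.99 in MatKO hearts. The difference was 0.12 ± 0.16 (SE, unadjusted p 0.479). For both genes the groups overlapped, with 95% intervals of -0.14 to 0.44 for Kcnj8 and -0.23 to 0.46 for Pdgfrb. WT hearts spanned 9.17 to 9.73 for Kcnj8 and 8.64 to 9.32 for Pdgfrb.

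Rgs5, a regulator of G protein signalling and the best known pericyte marker, was the most variable member. It read 7.72 in the KO heart, 8.13, 10.35, 8.60 and 9.98 in PatKO hearts, 10.42, 10.42, 8.29 and 10.25 in MatKO hearts, and 7.87, 10.17 and 8.80 in WT hearts. The 12 hearts fell into 2 sets of 6, at 8.80 or less and at 9.98 or more, with a gap of 1.17. Each genotype with more than 1 heart had hearts in both sets, and the genotype means of 9.26 in PatKO, 9.85 in MatKO and 8.95 in WT hearts lay in the gap. The PatKO minus MatKO difference was -0.58 with a 95% interval of -2.04 to 0.87. The low PatKO and MatKO hearts (PatKO 1, PatKO 3 and MatKO 3) were the 3 hearts of the series with low Xist, a transcript of female cells, whereas the low KO and WT hearts (KO 1, WT 1 and WT 3) had high Xist. With Xist in the model the difference changed sign, to 0.065 (unadjusted p 0.879).

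**Figure D3:**
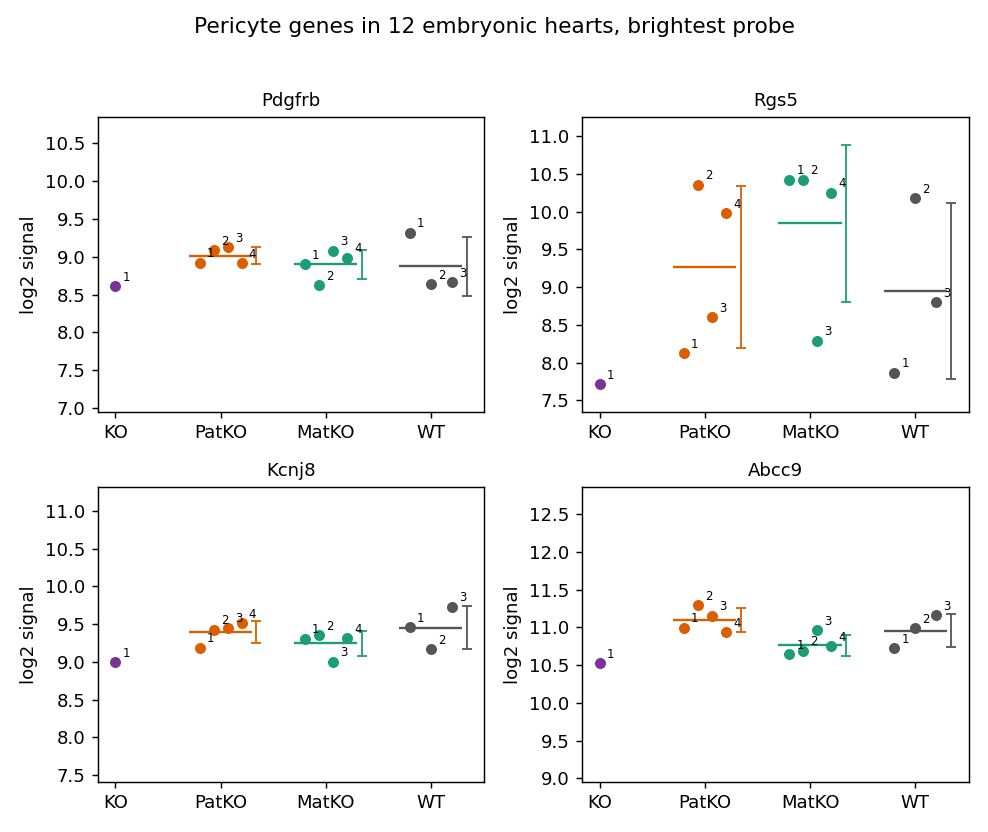
Log2 signal (vertical axes, each spanning the same number of log2 units) of the brightest probe of the 4 pericyte genes in KO, PatKO, MatKO and WT hearts; points are hearts labelled by replicate, lines are means and bars are ± 1 SD. Rgs5 spans 7.72 to 10.42 with both high and low hearts in PatKO, MatKO and WT, and the KO heart is lowest in every panel.

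The KO heart had the lowest reading of all 12 hearts for each of the 4 pericyte genes. Its values were 8.61 for Pdgfrb, 7.72 for Rgs5, 9.00 for Kcnj8 and 10.52 for Abcc9, and the next lowest hearts read 8.62, 7.87, 9.00 and 10.65. The margins were thus small, and the second bright Abcc9 probe, at 9.97 in KO, was the third lowest. Among all bright probes the KO heart was lowest for 6.97%. This pattern was noticed after the values were seen. For none of the 6 contractile genes was the KO heart lowest on the brightest probe. Against the WT hearts the fitted differences were -0.26 for Pdgfrb, -1.23 for Rgs5, -0.46 for Kcnj8 and -0.44 for Abcc9. Of these Abcc9 had an unadjusted p of 0.04999 and Kcnj8 of 0.0584, and the adjusted p was 1.00 for all 4. Abcc9 was the 1 member probe of 26 with an unadjusted p under 0.05 in KO against WT (4.91% of all probes), and it lost that level in 13 of 20 alternatives (differences of -0.55 to -0.27), among them the fits without WT 2 or 3, without MatKO 1, 2 or 4 and without PatKO 1, 3 or 4. These p-values take the spread of the single KO heart to be that of the other genotypes. Among 16 other pericyte genes the KO heart was lowest for 3 (Cspg4, Higd1b and Heyl) and highest for 2 (Vtn and Gja4).

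The remaining comparisons gave fewer differences. For PatKO against WT 3 of 26 probes had an unadjusted p under 0.05 (3.93% of all probes), all higher in PatKO, and 2 of them were Mylk probes. ILMN_1219471 read 9.00, 9.59, 9.01 and 9.25 in PatKO hearts, against 8.79, 8.63 and 8.78 in WT hearts, with no overlap (2.21% of all probes) and a difference of 0.48, which lost this level in 2 of 22 alternatives, with Afp in the model (0.43) and without WT 2 (0.43). The remaining probe of the 3 was the dim Acta2 probe ILMN_1237242, at 0.71 (unadjusted p 0.0493), while the bright Acta2 probes gave -0.07 to 0.17. No brightest probe reached this level. For MatKO against WT 1 of 26 did (4.88% of all probes), the bright Acta2 probe ILMN_2923445 given above. It lost this level in 7 of 22 alternatives, among them the fits without WT 1 or 3 and without MatKO 1 or 3 (0.17 to 0.23). When the 5 Ddc-ablated hearts were set against the 7 control hearts, 5 of 26 did (5.46% of all probes). Of these 3 were Mylk probes, with differences of 0.33 on the brightest and of 0.46 and 0.40 on ILMN_1219471 and ILMN_2662602. The brightest lost this level in 13 of 21 alternative fits (differences of 0.25 to 0.42), among them each fit without 1 heart other than WT 3, PatKO 1 or KO, while the other Mylk probes kept it in all 21. Mylk ILMN_1219471 had the smallest p of any member in this comparison (unadjusted 0.00335, adjusted 0.753). On that probe each of the 5 ablated hearts, at 8.95 to 9.59, was above each of the 7 control hearts, at 8.36 to 8.95, by a margin in the third decimal, which held for 0.115% of all probes. The others were the dim Acta2 probe ILMN_1237242, at a difference of 0.63, and Cnn1, at -0.32. The bright Acta2 probes gave -0.04 to 0.05 in this comparison. Cnn1 lost this level in 12 of 20 alternatives, among them the fits without WT 2, MatKO 2, 3 or 4, PatKO 1, 2 or 4, or KO (-0.34 to -0.24). These comparisons share hearts with one another.

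Ordered by mean, the brightest Mylk probe ran PatKO, WT, KO, MatKO, Smtn ran PatKO, WT, KO, MatKO, Myh11 ran PatKO, WT and then KO and MatKO with no order between them, and Abcc9 ran PatKO, WT, MatKO, KO. Tagln ran KO, MatKO, WT, PatKO and Cnn1 ran MatKO, WT and then KO and PatKO with no order between them. Neighbours in each order overlapped, except that the KO heart lay below every MatKO heart for Abcc9 and above every MatKO heart for Smtn. WT hearts sat between PatKO and MatKO on average for all 6 of these genes, and as a group they were spread more widely than MatKO hearts in 5 of the 6, Cnn1 excepted.

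Across hearts, Mylk varied with Smtn, with Abcc9 and with the dim Myh11 probe. Over the 12 hearts Pearson's r was 0.86 between Mylk and Smtn (permutation p 0.0006, adjusted over 45 gene pairs 0.00742) with a Spearman's rho of 0.71 (permutation p 0.0124, adjusted 0.14). Between Mylk and Abcc9 r was 0.84 (permutation p 0.00066, adjusted 0.00742) and rho was 0.85 (permutation p 0.00071, adjusted 0.0148). Without PatKO 2 and WT 3, the hearts farthest from the Smtn or Mylk median, r was 0.69 for Mylk with Smtn and 0.72 for Mylk with Abcc9. Within genotypes, after each genotype mean was taken off, it was 0.83 and 0.80 over 11 hearts. Smtn and Abcc9 had r of 0.68 (permutation p 0.0146, adjusted 0.109) and rho of 0.52 (permutation p 0.0824, adjusted 0.309). For this pair r was 0.34 without those 2 hearts and 0.63 within genotypes, and it did not pass adjustment. The other pericyte genes followed these 3 genes less closely. Rgs5, whose hearts fell into separate sets, had r of 0.10 with Mylk, 0.08 with Abcc9 and -0.15 with Smtn. In the same order r was 0.05, 0.23 and 0.18 for Pdgfrb and 0.54, 0.43 and 0.62 for Kcnj8. None of these passed adjustment over the 45 pairs. Myh11 had r of 0.94 with Mylk (permutation p 0.0001, adjusted 0.0045), the highest of the 45 pairs. With Abcc9 its r was 0.87 (permutation p 0.0004, adjusted 0.00742). Within genotypes these were 0.92 and 0.80. Many Myh11 readings lay near the lowest signals and have no order, so its r rests largely on the hearts of its upper set. The 4 hearts with the highest Mylk (PatKO 2, 3 and 4 and WT 3) were among the 5 in the upper Myh11 set. These 4 hearts, 1 of them WT, also had the lowest Hbb-y and Hba-x, which are red cell markers. Hbb-y read 12.53 to 13.12 in them and 14.02 or more in the others, and Hba-x 10.14 to 10.71 against 11.37 or more. For the red cell marker Hbb-bh1 PatKO 4, at 8.84, lay above PatKO 1, at 8.62. Whether this relation underlies the PatKO minus MatKO differences was not tested.

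Tagln and Cnn1 tended the other way from Smtn. Tagln and Smtn had r of -0.66 (permutation p 0.0206, adjusted 0.132) and rho of -0.66 (permutation p 0.0216, adjusted 0.195), and Cnn1 and Smtn had r of -0.63 (permutation p 0.0273, adjusted 0.153) and rho of -0.56 (permutation p 0.0632, adjusted 0.284). Neither passed adjustment. Without the 2 hearts farthest from the Tagln or Cnn1 median r was -0.52 and -0.60.

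The mean pericyte level overlapped between PatKO, MatKO and WT hearts. The pericyte level was -0.64 in the KO heart, 0.10 ± 0.32 in PatKO hearts, 0.09 ± 0.24 in MatKO hearts and -0.04 ± 0.20 in WT hearts (SD), and it followed Rgs5, since without Rgs5 it was -0.34 in the KO heart, 0.12 ± 0.11 in PatKO, -0.08 ± 0.06 in MatKO and 0.05 ± 0.14 in WT hearts. Over those 3 genes the PatKO hearts, at -0.01 to 0.22, lay above the MatKO hearts, at -0.16 to -0.03, a pattern seen after the values were known. The contractile minus pericyte level was 0.57 in the KO heart, -0.24 to 0.16 in PatKO hearts, -0.33 to 0.26 in MatKO hearts and -0.07 to 0.24 in WT hearts. Only the KO heart stood outside the range of the rest, and without Rgs5 its value of 0.27 lay below that of WT 2, at 0.29.

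**Figure D4:**
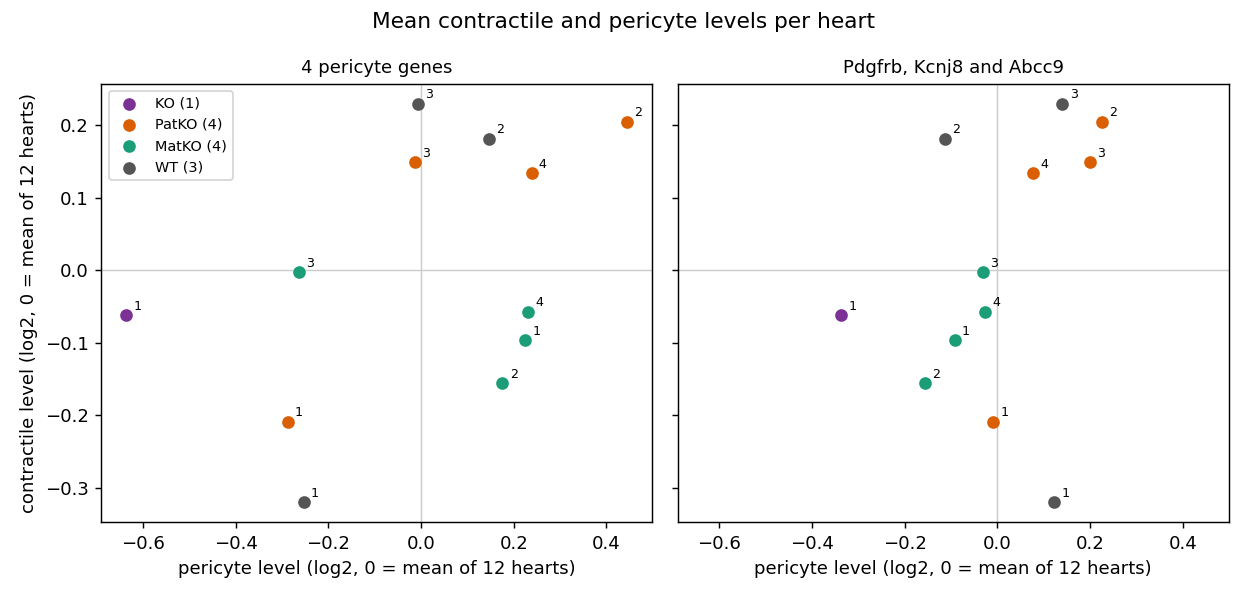
Mean contractile level (vertical axis) against mean pericyte level (horizontal axis) of each heart in log2 units, with 0 as the mean of the 12 hearts, for all 4 pericyte genes (left) and without Rgs5 (right); colours are genotypes and numbers are replicates. The KO heart has the lowest pericyte level in both panels, at -0.64 and -0.34, and the other genotypes overlap on the left.

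Genes outside the members were ranked by how closely they followed each mean level over the 12 hearts, among 9291 named genes with a bright probe. The 5 most like the contractile level were Nudt22 (Pearson's r 0.94), Fmo1 (0.94), Il13ra1 (0.93), Cgrrf1 (0.93) and Ndrg2 (0.93). The 5 most like the pericyte level were Mospd2 (0.92), Sccpdh (0.90), Yrdc (0.88), Wdpcp (0.86) and Pik3cg (0.85). The same ranking was made for single members. The 5 most like Mylk were Rpl3l, Ly6c1, Scara5, Mpi and Art3 (r 0.938 to 0.956). The 5 most like Abcc9 were Cep128, Dram1, Cdc37l1, Fhl2 and Abca8a (0.916 to 0.924). The 5 most like the dim Myh11 probe were Ckmt2, Cgrrf1, Pdp1, Entpd5 and Cox8b (0.95 to 0.97). From which cells of the heart these shared signals came was not tested. These are correlations with no test, over libraries that share their processing.

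The genes most like Rgs5 alone were listed as well, a step chosen after its values were seen. Of the 10 most alike, 5 lie on chromosome 1, as Rgs5 does, while 5.16% of the genes searched do. They were Sdhc, Adamts4, Olfml2b, Sft2d2 and Sccpdh. Olfml2b stands 12 protein-coding genes from Rgs5 in the RefSeq annotation (GRCm38.p6), Sdhc 23, Sft2d2 30, Adamts4 31 and Sccpdh 144. Adamts4, a protease of the extracellular matrix, read 8.16 in the KO heart, 8.70, 9.00, 8.75 and 8.91 in PatKO hearts, 9.55, 9.59, 8.57 and 9.05 in MatKO hearts and 8.30, 9.32 and 8.44 in WT hearts (Spearman's rho with Rgs5 0.92, n = 12). Olfml2b, an extracellular olfactomedin protein, read 11.95 in the KO heart, 11.93, 12.82, 11.82 and 12.38 in PatKO hearts, 12.60, 12.64, 11.84 and 12.51 in MatKO hearts and 12.12, 12.38 and 11.92 in WT hearts. In each genotype the hearts with high Olfml2b were those with high Rgs5.

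**Figure D5:**
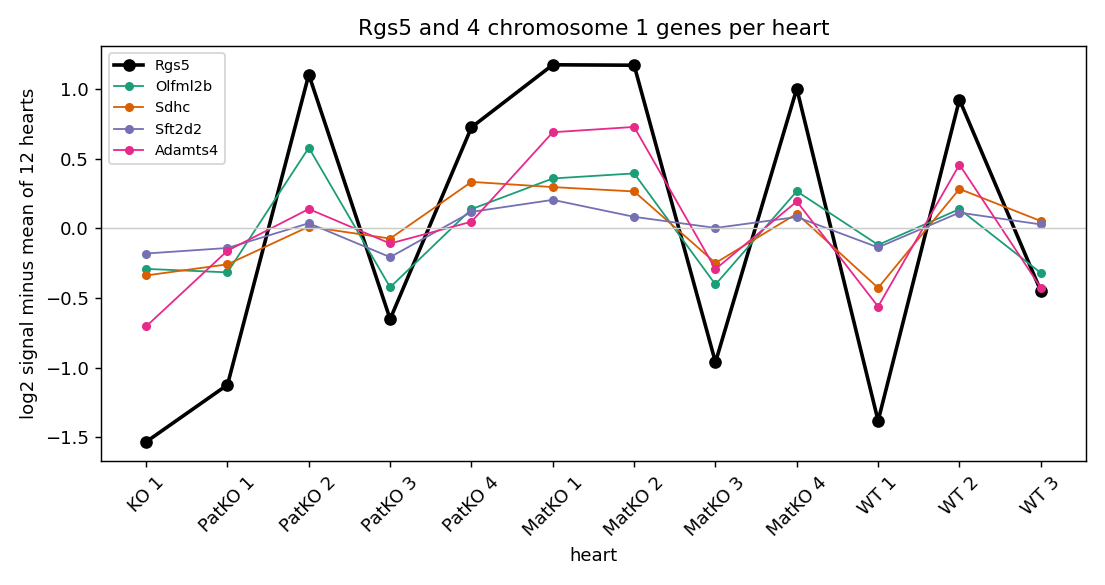
Log2 signal minus its mean over the 12 hearts (vertical axis) of Rgs5 and of Olfml2b, Sdhc, Sft2d2 and Adamts4, which lie on the same chromosome, for each heart (horizontal axis). Rgs5 spans 2.71 log2 units, and the other 4 are mostly high or low in the same hearts, over smaller ranges.

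Other genes of the same pathways had medians near 0. Between PatKO and MatKO hearts the median difference was -0.02 over 24 of 26 further contractile genes measured, -0.03 over 16 of 18 further pericyte genes and -0.01 over 27 of 30 regulators and mural cell signals, beside a median of -0.0043 over all probes. None of their genes passed adjustment. Of all probes 3.3% were higher and 3.82% lower in PatKO at an unadjusted p under 0.05. At an unadjusted p under 0.05 there were 0 higher and 2 lower among the contractile genes, Pdlim7 (-0.34, a PDZ and LIM protein of the actin cytoskeleton) and Kcnmb1 (-0.69, the smooth muscle subunit of the large calcium-activated potassium channel). Among the pericyte genes 3 were higher, Vtn (1.81), Art3 (0.57) and Higd1b (1.17). Among regulators 1 was higher, Myocd (0.35, unadjusted p 0.0387, named after its value was seen), which encodes the myocardin that drives contractile genes and is also strong in cardiomyocytes. It read 12.91, 13.29, 13.03 and 12.67 in PatKO hearts, against 12.53, 12.76, 12.61 and 12.60 in MatKO hearts, and PatKO 4 lay within the MatKO range. The 4 lower regulators were Foxc1 (-0.58), Tgfb2 (-0.22), Hey1 (-0.43) and Angpt1 (-0.47), which encode a mesenchymal transcription factor, a transforming growth factor, a Notch target and the angiopoietin that pericytes supply to endothelium. Hey1 was also lower in PatKO than in WT hearts, by 0.66 (unadjusted p 0.00483). Kcnj11, which encodes the related pore Kir6.2, and Abcc8, which encodes SUR1, belong to the same channel family as Kcnj8 and Abcc9. Abcc8 read 7.64, 8.17, 8.34 and 8.31 in PatKO hearts, against 7.71, 7.74, 7.22 and 7.48 in MatKO hearts (0.58, unadjusted p 0.0276). Kcnj11 overlapped between them, at 6.37 to 7.55 in PatKO and 6.31 to 7.40 in MatKO hearts.

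The other actins, whose sequences are close to that of Acta2 so that probes may share signal, overlapped between PatKO and MatKO hearts. Actc1, cardiac actin, read 14.88 to 15.07 in PatKO and 14.92 to 15.21 in MatKO hearts. Acta1, skeletal actin, read 12.43 to 13.26 in PatKO and 12.98 to 13.60 in MatKO hearts. Actg2, enteric smooth muscle actin, read 8.13 to 9.63 in PatKO and 7.72 to 9.01 in MatKO hearts.

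Markers of other tissues varied between hearts. Afp, a liver protein, read 12.62 in the KO heart, 4.88 to 11.36 in PatKO hearts, 4.90 to 10.77 in MatKO hearts and 5.65 to 6.23 in WT hearts, and Alb, the defining liver gene, was dim throughout at 4.78 to 5.32. The PatKO minus MatKO difference was above 0 for 8 of 8 liver markers, 2 of them at an unadjusted p under 0.05, Apoa2 (3.08) and Fgb (0.19). Over all probes the median difference was -0.0043, with 3.3% higher and 3.82% lower at that level. Fgb was dim like Alb, at 4.65 to 5.05 in all hearts, and readings this low have no order. The summed log2 signal of these 8 liver markers was 83.1 in the KO heart, 43.5 to 77.0 in PatKO hearts, 43.0 to 67.9 in MatKO hearts and 44.9 to 49.0 in WT hearts. Vtn, which the liver secretes in quantity, was also high where they were, at 10.28 in the KO heart, 8.70, 8.05, 6.87 and 8.63 in PatKO hearts, 5.39, 5.36, 7.61 and 6.64 in MatKO hearts and 5.39, 5.19 and 6.04 in WT hearts. At an unadjusted p under 0.05, 4 of 4 cartilage markers and 3 of 5 epicardial markers were lower in PatKO than in MatKO hearts, beside 3.82% of all probes. Their summed log2 signals were 25.9 to 27.4 in PatKO and 29.4 to 31.2 in MatKO hearts for cartilage, and 37.3 to 42.3 in PatKO and 41.7 to 43.6 in MatKO hearts for the epicardium. Of 4 red cell markers 3 were lower and 1, Alas2, was higher in PatKO at that level. Of 8 fibroblast markers 1 was lower, Tcf21 (-0.66), a factor of epicardium-derived cells. All 3 neuron markers measured had a PatKO minus MatKO difference above 0, with Stmn2 at 0.85 (unadjusted p 0.00898) and the dim Tubb3 at 0.44 (unadjusted p 0.0472). Th was also dim, at 4.79 to 5.16 in all hearts, so the sign of its difference carries little. The summed log2 signals of these 3 were 20.61 in the KO heart, 18.02 to 19.67 in PatKO hearts, 16.72 to 18.07 in MatKO hearts and 17.01 to 18.15 in WT hearts. Of 5 skeletal muscle markers 1, Ckm (0.37), was higher. Ckm was bright in all hearts, at 14.45 to 15.12, while the other 4 were dim, with differences of -0.16 to 0.81. Of 6 cardiomyocyte markers Myh7 (0.22) and Ttn (0.27) were higher and Myl7 (-0.58) was lower. None of these passed adjustment.

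With Afp in the model the Mylk difference was 0.49, Myh11 1.33, Smtn 0.37 (unadjusted p 0.0522), Abcc9 0.32, Tagln -0.79 and Cnn1 -0.49 between PatKO and MatKO hearts. Xist, which only female cells transcribe at a high level, was at 4.75 to 5.99 in PatKO 1, PatKO 3 and MatKO 3 and at 12.57 or more in the other hearts. All low readings were thus in PatKO and MatKO hearts, so the genotypes were not balanced for it. With Xist in the model the differences were 0.53 for Mylk, 1.41 for Myh11, 0.40 for Smtn, 0.31 for Abcc9, -0.72 for Tagln and -0.56 for Cnn1, and that of Rgs5 turned in sign as given above. The part of the epicardial, cartilage, red cell and neuron markers in these values was not tested.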

How the data were processed

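RNA of 12 hearts was labelled and hybridised to Illumina mouse arrays. The deposited values are log2 signals per probe. Per the methods the authors corrected background with neqc, quantile-normalised the arrays and fitted limma, and GenomeStudio and limma are the tools in the submitters' processing notes (versions: not given in the sources used here). Another array maker is named in the methods, while the probe identifiers are those of Illumina. Array medians were 5.61 to 5.62 and arrays correlated at 0.983 to 0.993, and the number of arrays limits the precision.

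One linear model over the 4 genotypes was fitted to all 45267 probes with limma 3.58.1 in R 4.3.3, so that they share 1 estimate of spread. The ablated against control comparison was fitted with those 2 groups. P-values are two-sided and adjusted by Benjamini-Hochberg over all probes, with no filter. The procedure was tested on simulated data. Probes were named through the platform annotation, which gives 34875 probes 1 symbol and 18 several and leaves 10374 unnamed here. All member probes were reported, the brightest stood for a gene, up to 4 genes of a related list with the smallest p were named, and the 5 genes most correlated with each mean level were named. Genes most like Mylk, Abcc9, Myh11 and Rgs5 were named after the values were seen. Correlations were tested by 100000 permutations. Members and lists were chosen with earlier results of these data known. Alternatives were leaving out hearts, a replicate block, array weights, other variance estimates, other offsets before the logarithm, arrays centred on their medians, dim probes left out, only the compared arrays, and Afp or Xist as a covariate. The 24 columns of a scanner table that could not be tied to a heart and the authors' own comparison tables, which hold fold changes and p-values, were not used.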

Additional observations from a re-analysis of the deposited data

Results flagged for a closer look

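MatKO 3 stood apart from its genotype for 2 pericyte genes. Its Rgs5 value was 8.29, while the other MatKO hearts read 10.25 to 10.42, so the gap was 0.92 of the range of the genotype. Its Kcnj8 value was 9.0, while the others read 9.31 to 9.36, a gap of 0.863 of the range. MatKO 3 was also the only MatKO heart with low Xist, at 5.99, while the others read 12.80 to 13.52. Both gaps exceed the 95% critical value of Dixon's test for 4 hearts. In all 36 groups over 18 probes were examined, and chance alone marks about 1 in 20. WT and KO held too few hearts to be examined.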

How the results depend on the processing

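No member probe passed adjustment under any alternative (smallest adjusted p 0.263 over 112 fits). Over 68 differences and 1443 alternative values, 1308 kept direction and side of an unadjusted p of 0.05, 69 lost that level, 31 gained it and 35 changed sign. The cause was not tested.

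Leaving out 1 heart gave 6 to 11 probes at an unadjusted p under 0.05 for PatKO against MatKO, 1 to 4 for PatKO against WT, 0 to 5 for MatKO against WT, 0 to 2 for KO against WT and 3 to 9 for ablated against control. The PatKO against WT count was 0 with Afp and 5 with Xist. The MatKO against WT count was 2 with array weights, 2 with Xist, 0 with Afp and 0 with the compared arrays alone. The KO against WT count was 0 with trended and robust variance, without dim probes and with Afp. The ablated count was 3 without dim probes. The share of all probes was not counted in any alternative fit, so whether these counts moved with the whole array was not tested. The contractile level difference between PatKO and MatKO was -0.081 without Myh11, 0.33 without Tagln and 0.27 without Cnn1.

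Same-numbered hearts did not regularly deviate together (correlations -0.346 to 0.537 over 10 pairs, 2 of them over 0.1). So few values, on both sides of 0, cannot decide whether numbers pair hearts. With the replicate block the counts were 11 for PatKO against MatKO, 2 for PatKO against WT, 2 for MatKO against WT, 0 for KO against WT and 7 for ablated against control. Under the block Mylk ILMN_1219471 was 0.00031 in MatKO against WT, and in KO against WT Cnn1 was 0.095, Smtn 0.069 and Mylk 0.088, all turned in sign.

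Other sign changes were Rgs5 in PatKO against MatKO at 0.065 with Xist, Kcnj8 in PatKO against WT at 0.031 with Afp and 0.065 with Xist, Kcnj8 in ablated against control at 0.11 with Afp and 0.029 with Xist, Pdgfrb there at -0.015 with Xist, and Mylk ILMN_2662602 in KO against WT at -0.014 with array weights. Leaving out 1 heart turned Acta2 ILMN_2710353 in PatKO against MatKO (-0.15 to 0.040). In PatKO against WT it turned Myh11 (-0.063 to 0.88), Smtn (-0.049 to 0.31), Rgs5 (-0.22 to 0.93) and Kcnj8 (-0.20 to 0.079). In MatKO against WT it turned Mylk (-0.35 to 0.065), Mylk ILMN_1219471 (-0.14 to 0.061) and Pdgfrb (-0.091 to 0.25). In KO against WT it turned Cnn1 (-0.19 to 0.060), Smtn (-0.21 to 0.14), Mylk (-0.33 to 0.088) and Mylk ILMN_2662602 (-0.050 to 0.10). In ablated against control it turned Pdgfrb (-0.0033 to 0.13) and Kcnj8 (-0.074 to 0.061).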
